A study of Mus musculus with 4 samples.

Results

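Ccna2, Exosc9, Top2a, Mki67, Ccnb1, Cdk1 and Plk1 are 7 of the 50600 genes counted in mouse T-helper 2 cells. They were picked by name, with their levels in these libraries already known. On the strand as counted, the Ccna2 entry stood far above the other 5 mitosis genes picked. Its exons overlap those of Exosc9 on the other strand. Levels are therefore given as a description with no test. The samples were 4 total RNA-seq libraries of T-helper 2 primary cells, the helper T cell subset that makes interleukin 4. They came from mouse strain C57BL/6NJ, were differentiated in culture, and form 1 group with no untreated or other control. Age was unknown, and no genetic change or agent is given in the labels. The labels number the libraries as biological replicates 1 to 4 and name 1 donor for all of them. Any p-value here therefore measures only how far these samples spread, and that spread may be technical. A time of 16 hours stands in the file headers alone.

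Cyclins are regulatory proteins that switch on cyclin-dependent kinases at set points of the cell cycle. Cyclin A2 (Ccna2) acts in S phase and up to early mitosis, cyclin B1 (Ccnb1) with its kinase Cdk1 drives entry into mitosis, and Polo-like kinase 1 (Plk1) acts on centrosomes, spindle and cytokinesis. Topoisomerase II alpha (Top2a) untangles sister chromosomes, and Ki-67 (Mki67) coats mitotic chromosomes and is the usual marker of dividing cells. The transcripts of these mitosis genes normally rise together in dividing cells, such as activated T cells. Exosc9 has another role: it encodes a core subunit of the RNA exosome, the complex that trims and degrades RNA from its 3′ end.

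Ccna2 and Exosc9 lie tail to tail on chromosome 3 of build mm10 and run into each other. Ccna2 (ENSMUSG00000027715.9) lies on the minus strand at chr3:36564865-36572150, with 9 exon blocks and 4083 exonic bases. Exosc9 (ENSMUSG00000027714.11) lies on the plus strand at chr3:36552606-36565727, with 9 exon blocks and 4709 exonic bases. The gene spans share 863 bases. Of these, 510 bases (chr3:36565218-36565727) are exon in both genes, which is 12.5% of the exonic length of Ccna2 and 10.8% of that of Exosc9. The stretch is the whole last exon block of Exosc9 and lies inside the last exon block of Ccna2, which is 1418 bases long. The remaining 353 bases of the Ccna2 end lie in the last intron of Exosc9. In the main transcript of each gene in the GENCODE release M21 annotation, the stretch is wholly 3′ UTR for Ccna2. For Exosc9 it holds 155 coding bases and 223 UTR bases. The rest, between coding parts, is not exon in that main transcript, though it lies in the exon block counted.

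The ends of both transcripts are shown because they fix where the overlap begins and stops. The sequences come from GENCODE M21 transcripts on the same build, 5′ to 3′ on the transcript's own strand. Capitals mark the AATAAA poly(A) signal in the 3′ ends and the stop codon in the coding ends.
Ccna2-201, 3′ end, chr3:36564865-36564894, minus strand: tgtaAATAAAgcatgcaaattaacccttta
Exosc9-201, 3′ end, chr3:36565698-36565727, plus strand: taAATAAAatgtctccataaactactgtaa
Ccna2-201, last coding bases, chr3:36566234-36566263, minus strand: ctcaacccaccagagacactaagtgtgTGA
Exosc9-201, last coding bases, chr3:36565478-36565507, plus strand: aggaagaagaagaagagaactgctaacTAA
Both 3′ ends carry AATAAA, with its first base 26 bases from the end in Ccna2 and 28 in Exosc9. The Exosc9 stop codon lies inside the shared stretch and the Ccna2 stop codon lies outside it.

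**Figure D1:**
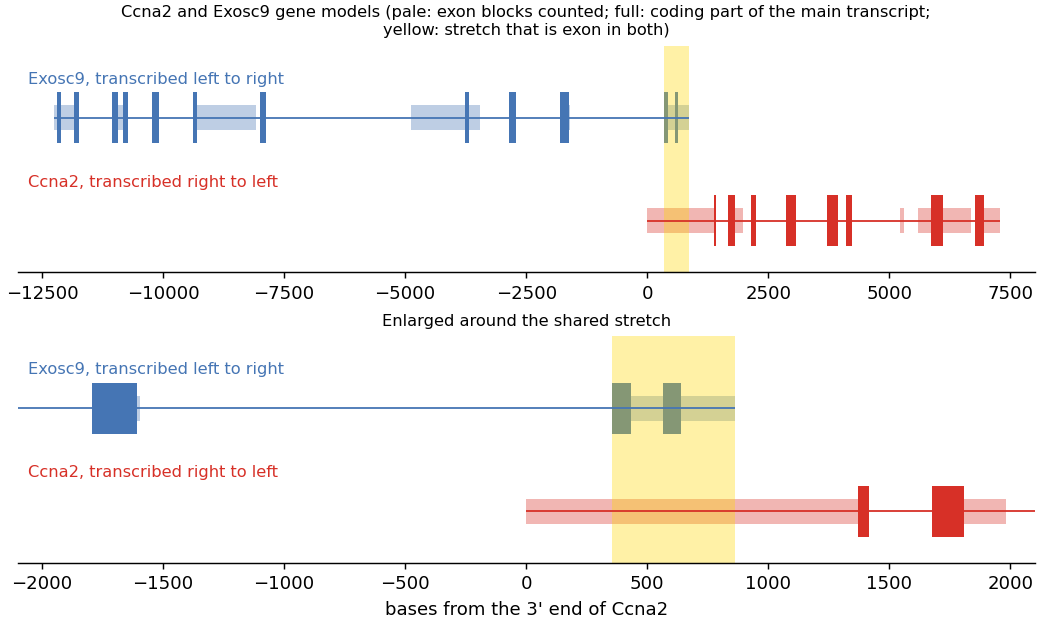
Exon blocks counted for Exosc9 (blue) and Ccna2 (red), in bases from the 3′ end of Ccna2, with the coding part of each main transcript drawn full height. The yellow band is the stretch of 510 bases that is exon in both genes, and the lower panel enlarges it.

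The 4 libraries held 1688658 to 2222583 counts. The entry CT010467.1, a ribosomal RNA sequence, took 1.29 to 9.4% of them, most in replicate 3. Each pair of libraries differed by more than counting error (chi-square over its degrees of freedom 4.2 to 24.4), so none was a copy of another. Of 12 T cell and Th2 markers, 10 had a count in every library and 2, Il5 and Il13, had none. Of 16 markers of other cells, 13 had none and Cd8b1, Cd79a and Csf1r had counts in every library. Summed TPM (a level per length: counts per base of exon, scaled to the same total in every library) was 112 to 177 for the T cell list and 145 to 179 for the other list. Csf1r made up most of the sum of the other list, at 155 ± 14.5 TPM (SD, n = 4). As listed it was above every T cell and Th2 marker, and it shares 871 exonic bases with Hmgxb3 on the other strand. Among markers with no exon opposite a gene on the other strand, the sums were 55 to 98.1 and 10.1 to 16. Of the Th2 genes, Il4 had 10, 12, 18 and 7 counts (7.43 ± 2.3 TPM), and Gata3, Ccr4 and Ptgdr2 were at 3.83, 10.8 and 57.3 TPM, while Il5 and Il13 were not detected. Ptgdr2 shares 1031 exonic bases with Ccdc86 on the other strand. Gata3 shares 155 with Gm13256, which was at 1470 TPM. The part of other cells in the results was not tested. In bulk samples, fewer dividing cells and less RNA per cell cannot be told apart.

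The counts were made on 1 strand, under strand option 1, per the file headers. Genes with an exon opposite a gene on the other strand held 90.1 to 93.3% of the counts of each library, although they are 16.2% of the genes listed. The mitochondrial mRNA encoded on the minus strand, 1 of 13, held 87.2 to 92% of the mitochondrial mRNA counts, although the plus strand encodes the other 12. Every level here, those of the markers above included, is a level on the counted strand. The sources used here do not say whether that strand is the one each gene is transcribed from, and this was not tested. If it is the other strand, the counts listed for a gene are reads from the opposite strand that fall on its exons. Those listed for Ccna2 would then be reads of the strand of Exosc9, and those listed for Exosc9 reads of the strand of Ccna2. Every pair on opposite strands would turn in the same way, and reads of a gene with nothing opposite would be listed under no gene. Each ranking of genes below is therefore a ranking of the entries as listed.

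As listed, Ccna2 had the highest level of the 7 genes in every library. With the counted strand turned, its 926 to 1255 counts would be reads of the strand of Exosc9 over Ccna2 exons. The 461 to 543 counts of Exosc9 would be reads of the strand of Ccna2 over Exosc9 exons. Only 510 bases are exon in both genes, so these counts could then not rank them. Ccna2 had 926, 931, 1255 and 1017 counts in replicates 1 to 4, or 194, 198, 206 and 194 TPM, a mean of 198 ± 5.4 TPM (SD, n = 4). The spread was small: the coefficient of variation of its TPM was 2.73%, beside 3.11% from counting error alone. Exosc9, the exosome subunit gene, had 461, 466, 522 and 543 counts, or 83.9, 85.9, 74.2 and 89.9 TPM, a mean of 83.5 ± 6.68 TPM (SD, n = 4). Its lowest TPM was in replicate 3, where Ccna2 had its highest, and the values of Ccna2 and Exosc9 did not overlap.

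Top2a (chr11:98992943-99024189, minus strand) led the other 5 mitosis genes picked. It had 29, 25, 20 and 50 counts, or 2.76, 2.41, 1.48 and 4.33 TPM, a mean of 2.74 ± 1.18 TPM (SD, n = 4). Mki67 (chr7:135689784-135716361, minus strand) had 29, 15, 12 and 27 counts, or 2.47, 1.29, 0.798 and 2.09 TPM, a mean of 1.66 ± 0.757 TPM (SD, n = 4). Both genes were lowest in replicate 3, and their ranges overlapped. The coefficient of variation was 43.1% for Top2a and 45.5% for Mki67, beside 18% and 22% from counting error.

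The kinase that drives mitotic entry was lower still. Cdk1 (chr10:69335146-69352938, minus strand) had 11, 2, 6 and 5 counts, or 1.91, 0.352, 0.814 and 0.79 TPM, a mean of 0.966 ± 0.664 TPM (SD, n = 4). Its range overlapped that of Mki67. Its cyclin partner Ccnb1 (chr13:100778650-100786570, minus strand) had 0, 1, 1 and 0 counts, or 0, 0.206, 0.159 and 0 TPM. Plk1 (chr7:122159439-122169873, plus strand) had 0, 1, 0 and 1 counts, or 0, 0.395, 0 and 0.355 TPM. A count of 0 allows up to 3 counts, which is 1.35 to 1.78 CPM by library (counts scaled by the library total, with no length), so an order between Ccnb1 and Plk1 was not detectable at this depth. All limits and intervals here cover counting error only, since the reads carry no stated molecular identifiers.

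**Figure D2:**
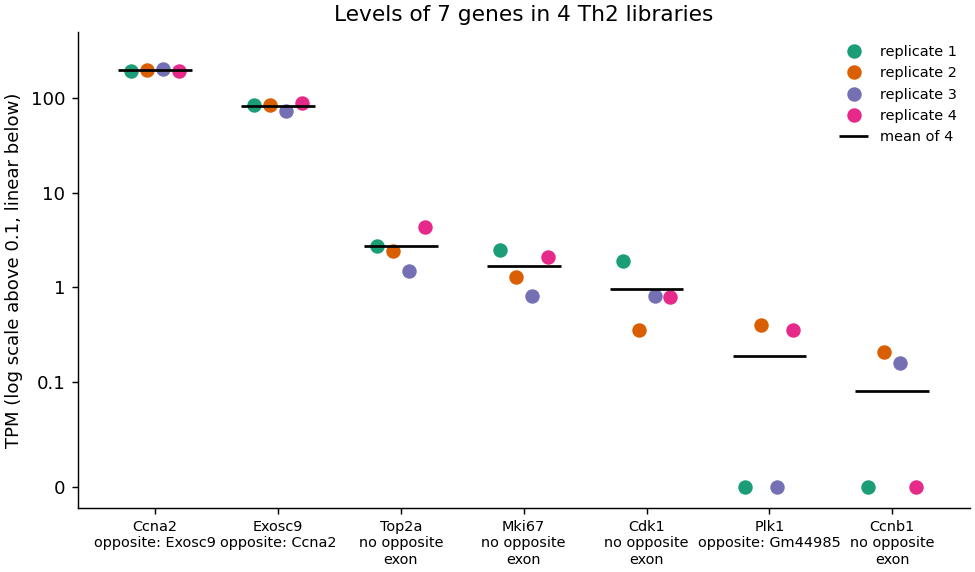
TPM of each of the 7 genes in the 4 libraries on a log axis, with 1 point per replicate and a bar at the mean. Ccna2 at 194 to 206 TPM and Exosc9 at 74.2 to 89.9 TPM sit above the other 5 genes, which reach at most 4.33 TPM.

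Set against the other 5 mitosis genes picked, the Ccna2 entry was far higher per length in every library. No such ratio can be had with the strand turned, since 4 of the 5 genes have no exon opposite. The ratio of its TPM to the median of Top2a, Mki67, Ccnb1, Cdk1 and Plk1 was 102, 501, 258 and 246 in replicates 1 to 4, a mean of 277 ± 166 (SD, n = 4). The ratio is wide because its divisor is small: the median of the 5 genes was 1.91, 0.395, 0.798 and 0.79 TPM. Over the summed libraries, Ccna2 had 73.5 times the counts per kilobase of Top2a (exact 95% interval 61.5 to 88.6). It had 123 times those of Mki67 (98.6 to 154) and 208 times those of Cdk1 (140 to 325). Against Plk1 the ratio was 1112 (308 to 9184) and against Ccnb1 it was 2132 (590 to 17613), each over 2 counts. The ratio to Exosc9 was 2.39 (2.27 to 2.52), far nearer to 1.

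Within the pair as listed, Ccna2 held most of the counts in every library. Replicate 1 gave a share of 66.8% of the summed Ccna2 and Exosc9 counts, with a 95% Wilson interval of 64.2 to 69.2%. The share was 66.6% (64.1 to 69.1) in replicate 2 and 65.2% (62.8 to 67.5) in replicate 4. Replicate 3 gave 70.6% (68.5 to 72.7). The mean was 67.3 ± 2.32% (SD, n = 4), and the interval of replicate 3 overlapped those of replicates 1 and 2 but not that of replicate 4. An alternative added after seeing the data turns the counted strand. The share of reads from the strand of Ccna2 would then be 33.2, 33.4, 29.4 and 34.8%, a mean of 32.7 ± 2.32% (SD, n = 4). It only exchanges the sides of the same counts, so the share as listed fixes it in advance. The ratio of the TPM values as listed was 2.32, 2.3, 2.77 and 2.16. The tables give 1 count per gene, so how much of it came from the 510 shared bases is not analysed here.

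The genes also differ in what lies opposite them. Of the 6 mitosis genes named, Ccna2 and Plk1 have an opposite-strand exon, and Top2a, Mki67, Ccnb1 and Cdk1 have none. Plk1 shares 156 exonic bases, 7.09% of its length, with Gm44985, an entry of type TEC (to be experimentally tested) inside the Plk1 span at chr7:122167029-122168044 on the minus strand. Gm44985 had 50, 57, 93 and 79 counts and a mean of 53.2 ± 9.35 TPM (SD, n = 4), 284 times the mean TPM of Plk1 itself. As listed, most counts lay on the mitosis gene in Ccna2 and Exosc9 and on the other entry in Plk1 and Gm44985. With the strand turned, most would be reads of the strand of Exosc9, and the 279 counts of Gm44985 reads of the strand of Plk1, beside 2.

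Top2a contains a small nucleolar RNA entry, Gm26394, of 115 bases on the plus strand, which lies in an intron and shares 0 exonic bases with it. Gm26394 had 12, 12, 19 and 27 counts and a mean of 118 ± 44.2 TPM (SD, n = 4). The entry is short, so few counts give a high TPM. In Mki67 the entry Gm45240 had 1 count over the 4 libraries. No other-strand entry overlaps the span of Ccnb1 or Cdk1, with the nearest 7878 and 19770 bases away.

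The profiles over the 4 libraries differed too. Relative to its own mean CPM, Ccna2 was at 1.00, 0.99, 1.03 and 0.98 in replicates 1 to 4, and Exosc9 at 1.02, 1.02, 0.88 and 1.08. Top2a was at 1.02, 0.87, 0.53 and 1.58, and Mki67, highest in replicate 1, at 0.77, 0.47 and 1.26 in replicates 2 to 4. Top2a and Mki67 were thus lowest in replicate 3, the library with the largest share of CT010467.1, while Ccna2 was flat. This dip was not particular to them. All protein-coding genes without an opposite exon, summed, were also lowest in replicate 3, at 26756 TPM, beside 34163, 32533 and 41774 TPM in replicates 1, 2 and 4. The part of CT010467.1 in these values was not tested.

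**Figure D3:**
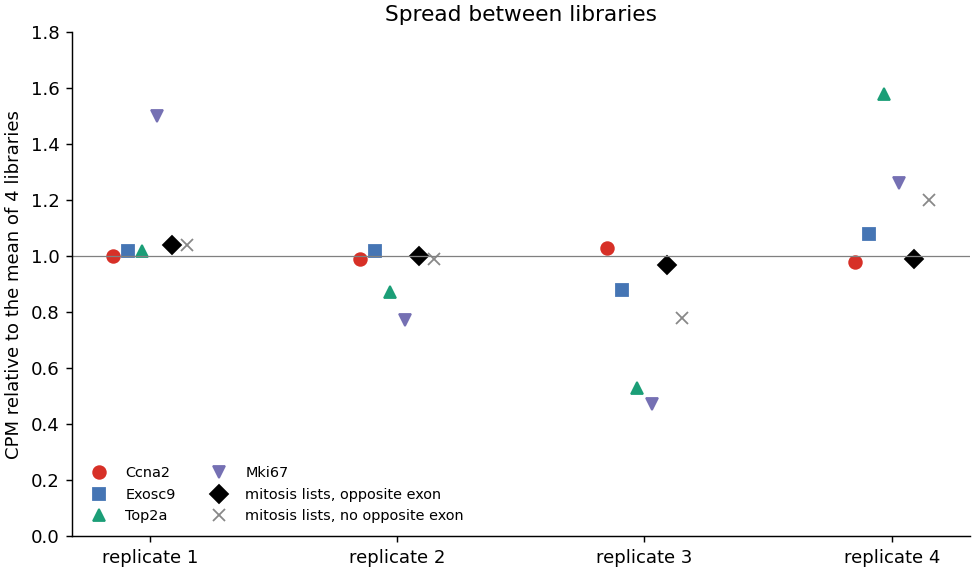
CPM of Ccna2, Exosc9, Top2a, Mki67 and the summed mitosis lists in each replicate, each relative to its own mean over the 4 libraries. Ccna2 stays within 0.98 to 1.03, while Top2a runs from 0.53 in replicate 3 to 1.58 in replicate 4.

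Whether a gene varied between replicates was tested over all genes, since the choice of members used levels and not that spread. edgeR's quasi-likelihood fit with Benjamini-Hochberg adjustment called 22 of 4918 genes (0.447%). Of the 7 genes, 3 passed the count filter and 0 were called. The edgeR adjusted p was 0.9914 for Ccna2, 0.9989 for Exosc9 and 0.9876 for Top2a, with unadjusted p of 0.475, 0.9484 and 0.178. Mki67, Ccnb1, Cdk1 and Plk1 had too few counts for the filter. Among the 117 genes of 7 mitosis lists, 33 were tested and 0 were called, with 0 at an unadjusted p under 0.05 by edgeR and by limma. Over all 4918 genes, 281 were under 0.05 by edgeR and 197 by limma. With every gene with a count kept, 4 of 116 mitosis genes were under 0.05 by edgeR, beside 689 of 17431 genes. With a replicate left out, 0 or 1 were. The 33 genes are too few to set 0 called apart from 0.447%. A miss of the threshold does not show that the genes were steady: on simulated data the test recovered 26.9% of genes changed 2-fold in 1 library and 100% of those changed 4-fold. The simulation set the same dispersion for every gene and did not estimate it from these libraries, so recovery in them may differ.

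Profiles most like that of Ccna2, by Euclidean distance between centred log2 CPM over the 4 libraries among 3508 protein-coding genes, were those of Chadl (distance 0.031), Stx3 (0.034) and Mettl5 (0.035). Chadl has an exon opposite L3mbtl2 and Mettl5 one opposite Ssb, while Stx3 has none. Exosc9 was at a distance of 0.268 from Ccna2 (rank 659) and Top2a at 1.161 (rank 3299). For Exosc9 the nearest were Ttc16 (0.020, opposite Tor2a), Nsun5 (0.037, opposite Pom121) and Mrpl24 (0.038, opposite Rrnad1). With 4 libraries, such likeness is a description, and flat profiles are near each other.

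The wider mitosis program was read from 7 lists with 117 genes in all, of which 28 (23.9%) have an opposite-strand exon, beside 22.1% of all protein-coding genes. Of the 28, 22 (78.6%) had a count in every library and 14 (50%) reached a mean of 5 TPM, with a median of 5.61 TPM. Of the other 89, 65 (73%) had a count in every library and 8 (8.99%) reached 5 TPM, with a median of 0.836 TPM. The same split was present over all protein-coding genes: with an opposite exon, 65.2% had a count in every library and 34.1% reached 5 TPM, with a median of 1.5 TPM. Without one, 31.6% and 7.06% did, with a median of 0 TPM. On either side the share of mitosis genes with counts was above the background share, with no test made, and the gap in level between the sides was present in the background too. Without the 6 mitosis genes named above, the medians were 5.61 and 0.825 TPM.

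The 28 genes with an opposite exon held 78.3, 78.6, 81.8 and 74.9% of the mitosis counts in replicates 1 to 4, beside 91.7, 92.2, 93.3 and 90.1% over all genes. Their summed level was 862, 871, 831 and 840 TPM, a mean of 851 ± 18.7 TPM (SD, n = 4). The 89 genes without one summed to 246, 251, 204 and 294 TPM, a mean of 249 ± 36.7 TPM (SD, n = 4). Replicate 3 was the lowest on both sides. In CPM, the coefficient of variation was 2.87% for the sum with an opposite exon and 17.5% for the sum without. All protein-coding genes without an opposite exon summed to 34163, 32533, 26756 and 41774 TPM in replicates 1 to 4, a mean of 33806 ± 6190 TPM (SD, n = 4). Those with one summed to a mean of 245154 ± 11258 TPM (SD, n = 4). The wider spread without an opposite exon, lowest in replicate 3 and highest in replicate 4, was thus present in the background too.

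**Figure D4:**
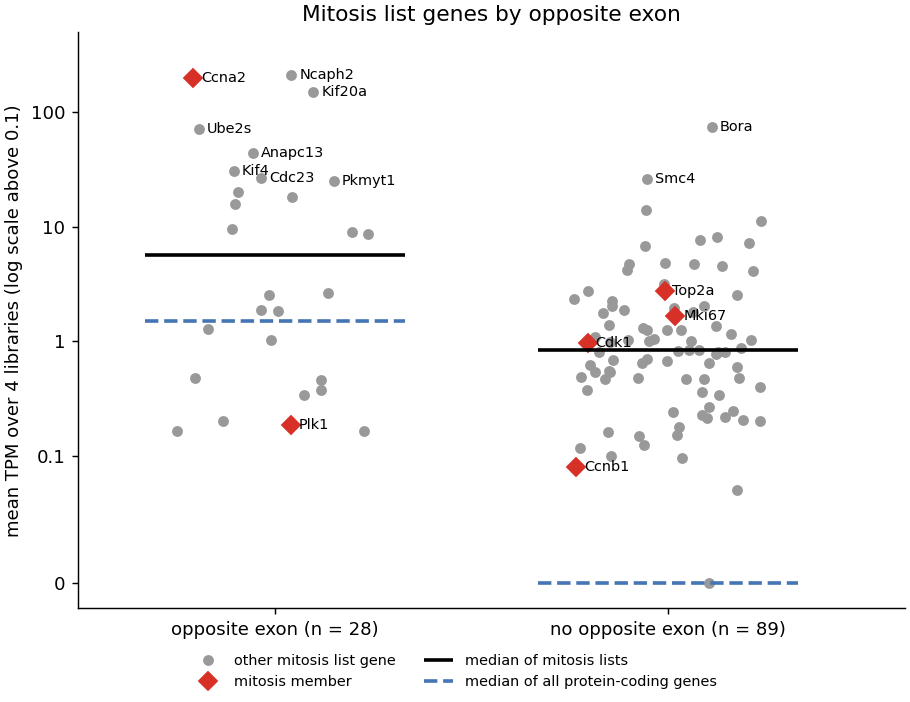
Mean TPM over 4 libraries of the 117 mitosis list genes, 1 point per gene, split by an opposite-strand exon, on an axis that is logarithmic above 0.1 TPM. Black lines are the medians of 5.61 and 0.836 TPM, dashed blue lines the medians of 1.5 and 0 TPM over all protein-coding genes, and red diamonds the 6 mitosis genes named first.

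Among mitotic kinases and cyclins, Pkmyt1, the kinase that holds Cdk1 inactive, was at 25.3 ± 4.55 TPM (SD, n = 4) opposite Paqr4. Bora, a cofactor that lets Aurora A activate Plk1, was at 74.5 ± 6.76 TPM (SD, n = 4) with no opposite exon, the highest of the 89 genes without one. Cks1b, a small Cdk-binding protein gene, was at 7.71 ± 3.59 TPM (SD, n = 4). Ccnb2, another B-type cyclin, was the sole mitosis list gene with no count.

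The spindle checkpoint genes, which hold anaphase until chromosomes are attached, were low throughout: Mad1l1 was at 1.89, Bub1b at 1.15 and Bub3 at 1.04 TPM. Their targets in the anaphase-promoting complex, the ubiquitin ligase that starts chromosome separation, held 3 genes above 10 TPM: Ube2s, Anapc13 and Cdc23, which is described below with Kif20a. Its E2 enzyme Ube2s was at 71.4 ± 12 TPM, opposite the ribosomal protein gene Rpl28, and its small subunit gene Anapc13 was at 44.3 ± 5.58 TPM, opposite Cep63 (SD, n = 4). Without an opposite exon, Anapc11 was at 4.19 and Anapc5 at 3.15 TPM.

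In the chromosomal passenger complex list, whose core corrects faulty attachments, Cdca8 was at 18.2 ± 1.61 TPM (SD, n = 4) and the scaffold gene Incenp at 8.16 ± 2.32 TPM (SD, n = 4). The cohesin protector genes Sgo2a and Sgo1 were at 0.457 and 0.809 TPM. Of the kinetochore genes, which join chromosomes to the spindle, Cenpn was at 11.2, Mis12 at 9.47, Ska3 at 2.53 and Ska2 at 0.338 TPM. These 2 lists were low beside Ccna2, and Sgo2a and Ska2 were low although each has an opposite exon.

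Motor genes of the spindle and cytokinesis list split widely. Kif20a, a kinesin of the central spindle, had 670, 704, 810 and 706 counts and 150 ± 8.14 TPM (SD, n = 4), and shares 1259 exonic bases with Cdc23, itself a subunit gene of the anaphase-promoting complex, at 26.6 ± 2.53 TPM (SD, n = 4). Kif4, a chromosome-bound kinesin, was at 30.9 ± 2.18 TPM (SD, n = 4). The kinesin genes Kif15 and Kif20b lack an exon opposite and were at 2.05 and 2.04 TPM. Among condensin and cohesin genes, Ncaph2 was the highest mitosis list gene at 210 ± 5.94 TPM (SD, n = 4), beside 198 ± 5.4 TPM for Ccna2, and shares 827 exonic bases with Sco2. Ncapg was at 9.05 TPM. Smc4 was at 26 ± 4.16 TPM and Smc1a at 13.9 ± 2.65 TPM (SD, n = 4), and neither has an exon opposite.

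In these pairs the counts as listed lay now on the mitosis gene and now on its partner. Kif20a and Cdc23 are both mitosis genes and each other's partner, so the other 26 of the 28 genes make 26 pairs. The mitosis gene had the higher mean TPM in 9 of them and the partner in 17. With the strand turned, these counts could not rank a pair, since each gene would be counted only over its partner's exons. The overlap over all 28 genes ran from 4 to 2455 bases. At 3′ ends that overlap, as in Ccna2 and Exosc9, the mitosis gene was higher in 4 of 11 pairs, and at 5′ ends in 4 of 10. Paqr4 reached 229 ± 36 TPM opposite Pkmyt1, and Gm11491 reached 231 ± 20.7 TPM opposite Ska2 (SD, n = 4). Kctd18 was at 39.1 TPM opposite Sgo2a, and Gm16121 at 44.2 TPM opposite Mad1l1. Sco2, at 192 ± 10.8 TPM (SD, n = 4), was slightly below Ncaph2 in every library. Ube2s was at 83.1, 80.4, 62 and 60.2 TPM in replicates 1 to 4, beside 63.3, 66.5, 42.6 and 101 TPM for Rpl28, so Ube2s was higher in replicates 1 to 3 and lower in replicate 4. The reverse held for Cdca8, whose partner 9930104L06Rik was at 0.215 TPM.

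**Figure D5:**
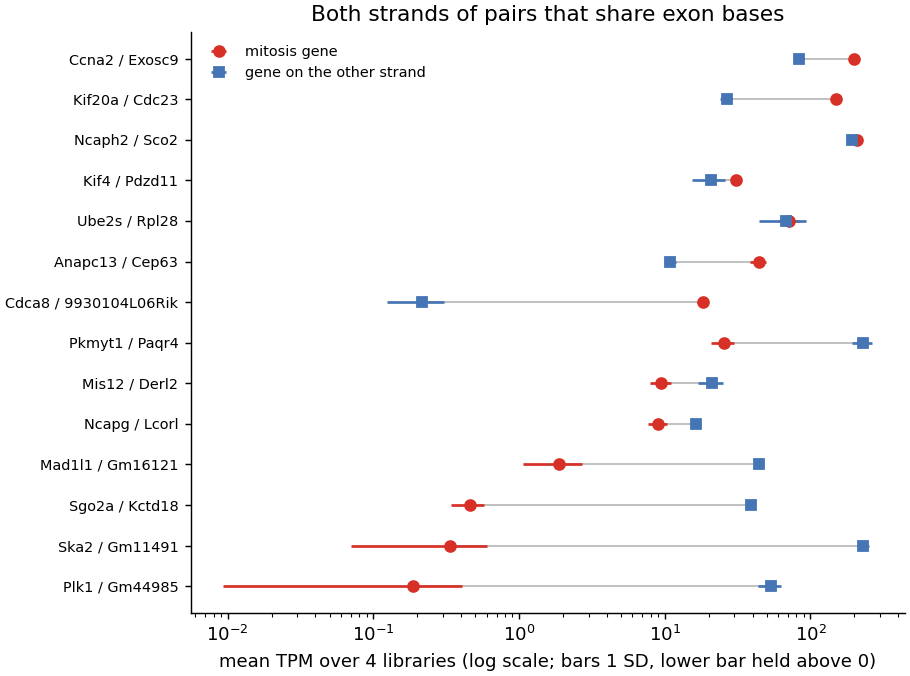
Mean TPM of 14 mitosis genes (red circles) and of the gene on the other strand that shares exonic bases with each (blue squares), on a log axis with bars of 1 SD over 4 libraries. Ccna2 and Kif20a lie above their partners, while Plk1, Ska2 and Sgo2a lie far below theirs.

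Exosc9 can be read against the rest of its complex. Of 16 RNA exosome genes, 15 had a count in every library. The 9 with an opposite exon had a median of 7.96 TPM and the 7 without one a median of 3.49 TPM. Exosc9 was the highest of them. Exosc3, a cap subunit gene, followed at 44.9 ± 7.28 TPM opposite Dcaf10, and Exosc8, a partner in the same ring, was at 20.4 TPM opposite Supt20. Neither Exosc1, another cap subunit gene, at 18.3 ± 2.7 TPM, nor the exonuclease gene Dis3l, at 14.9 ± 2.19 TPM (SD, n = 4), has an exon opposite.

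Ccna2 can likewise be read against cyclins and kinases that act outside mitosis. Of 23 such genes, 21 had a count in every library. The 14 with an opposite exon had a median of 6.58 TPM and the 9 without one a median of 1.43 TPM. Cdk4, the kinase of G1 phase, was the highest at 265 ± 26.8 TPM, opposite Tspan31 by 641 bases, and Ccne2, cyclin E2, was at 103 ± 5.54 TPM, opposite Ints8 by 609 bases (SD, n = 4). Both overlap their partner at the 3′ end, as Ccna2 does. Without an opposite exon, the transcription kinase gene Cdk13 was at 10.2 and its cyclin gene Ccnk at 5.25 TPM. Of 8 inhibitor genes of these kinases, 0 had a count in every library: Cdkn3 was at 3.26, Cdkn1a at 0.385 and Cdkn1c at 0.105 TPM.

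The promoters of Cdk1 and Top2a are shown since late cell cycle promoters are known for CCAAT boxes and for the CHR element TTTGAA, a repressor and activator site of such genes. They are the 250 bases before the start, from RefSeq on GRCm38.p6, 5′ to 3′, with matches to CCAAT or TTTGAA on either strand (ATTGG and TTCAAA on the other) in capitals. No 2 matches overlap, and RefSeq starts can differ from the gene ends in the count tables.
Cdk1, chr10:69352913-69353162, minus strand: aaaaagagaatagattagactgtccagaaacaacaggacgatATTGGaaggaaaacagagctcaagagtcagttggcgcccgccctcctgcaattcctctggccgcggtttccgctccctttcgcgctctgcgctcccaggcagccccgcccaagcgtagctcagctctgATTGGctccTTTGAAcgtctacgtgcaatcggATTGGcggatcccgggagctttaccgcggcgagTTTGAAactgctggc
Top2a, chr11:99024190-99024439, minus strand: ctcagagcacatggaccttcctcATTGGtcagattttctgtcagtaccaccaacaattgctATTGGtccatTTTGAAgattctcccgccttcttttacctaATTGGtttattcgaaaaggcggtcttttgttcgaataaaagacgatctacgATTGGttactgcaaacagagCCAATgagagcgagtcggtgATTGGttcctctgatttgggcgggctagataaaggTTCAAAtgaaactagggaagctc
Cdk1 has 3 CCAAT matches and 2 CHR matches, Top2a 6 and 2, Mki67 3 and 2, Ccnb1 2 and 0, and Plk1 1 and 0. Over 32851 promoters of the same length, 33.8% hold CCAAT, 16% hold TTTGAA and 5.55% hold both. Entries matched for 5 of the 7 genes, all but Ccna2 and Exosc9. A match is a description of letters and not a measured site.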

How the data were processed

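Total RNA-seq gene counts of 4 mouse T-helper 2 libraries were used. Per the file headers, the authors counted paired reads with both ends aligned over exons of each gene with featureCounts 1.4.6-p4, strand option 1, on mm10 and GENCODE M13. The deposited counts are whole and not normalised. Which aligner was used is not given in these sources. The labels call the assay total RNA-seq, while the linked protocol's name speaks of poly(A) RNA. The members and gene lists were chosen with earlier results of these data known.

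TPM was computed from the deposited counts and the deposited gene lengths. Symbols and transcript parts came from GENCODE M21 (99.6% of identifiers matched; the rest held 0.556% of counts). An opposite exon overlaps, by 1 base or more, an exon annotated on the other strand (bedtools 2.31.1). Such a gene's counts and its partner's can be told apart only as far as strand counting separates them.

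The spread between replicates was tested for each gene in edgeR 4.0.16, under R 4.3.3: intercept only, TMM, filterByExpr (minimum count 10), robust quasi-likelihood, upper tail of each gene's dispersion over the prior, Benjamini-Hochberg threshold 0.05. Tested on simulated data (5255 genes), with the same dispersion set for every gene, the procedure made 2 false calls among 5061 unchanged genes. It recovered 26.9% of 67 genes changed 2-fold in a library, and 100% of 64 changed 4-fold and of 63 changed 8-fold. Alternatives used DESeq2 1.42.0 size factors, limma 3.58.1 on log2(TPM + 1), other filters, scalings and list choices, and each replicate left out. Python 3.11.15, pandas 2.3.3 and scipy 1.17.1 were used. Depth of 1688658 to 2222583 counts sets 3 counts at 1.35 to 1.78 CPM.

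Named genes were the members, the 2 highest genes with and without an opposite exon in each list, their partners, and the 3 genes nearest in profile to Ccna2 and to Exosc9. Ccnb2, Exosc8, the entries inside Top2a, Mki67 and Plk1, and neighbours at a distance were named after their values were seen.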

Additional observations from a re-analysis of the deposited data

How the results depend on the processing

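On the strand as counted, Ccna2 stood above the other 5 mitosis genes under the alternatives run: the mean ratio of 277 was 241 in CPM, 198 against their mean, 180 against those with no opposite exon, and 202 to 335 with a replicate left out. Its share of the pair's counts, 67.3%, was 70.4% per length and 66.2 to 68% with a replicate left out. With the counted strand turned, an alternative chosen after seeing the data, the share read from the strand of Ccna2 was 32.7%. Each gene then takes the counts listed opposite, so this value follows from 67.3% and nothing was measured anew. The ratio has no value with the strand turned. Of mitosis genes with no opposite exon, 65 of 89 had a count in every library and 31 had 5 or more, and of those with one 22 of 28 and 16. Scaled over protein-coding nuclear genes, Ccna2 was at 843 and Exosc9 at 354 TPM.

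Genes varying between replicates numbered 22, 2 with library totals only, 56 with any count, 9 without the robust prior, 1 with limma, and 11 to 21 with a replicate left out, the lowest without replicate 4. Ccna2, Exosc9 and Top2a were not called under any of these, nor were Mki67, Ccnb1, Cdk1 and Plk1 under those in which they passed the filter. The cause of these shifts was not tested. Depth limits Ccnb1 and Plk1, with 2 counts each, and Cdk1, with 24. The untested strand limits all 7 genes. With the strand turned, reads of the exons of Top2a, Mki67, Ccnb1 and Cdk1, which have no opposite exon, would be listed under no gene. No paired analysis was possible because the libraries form 1 group.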

Other observations

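Some mitosis genes with no opposite exon still had levels above the rest, and their neighbours were looked at after these values were seen. Among the 89, 19 have the nearest other-strand gene within 500 bases of their own span. These had a median of 1.96 TPM, and 4 (21.1%) reached 5 TPM. In 52 genes the nearest lies further off, with a median of 0.659 TPM and 3 (5.77%) at 5 TPM, and in 18 an other-strand span overlaps without shared exon, with a median of 1.15 TPM. Over all protein-coding genes without an opposite exon, 17.1% of 1878 with a near neighbour and 5.48% of 12518 with a far one reached 5 TPM.

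Bora, at 209, 247, 282 and 275 counts, starts 291 bases from Mzt1, which is transcribed away from it and had 4, 4, 3 and 5 counts. Smc4 starts 168 bases from Ift80, which had 7, 6, 0 and 3 counts beside 145, 158, 173 and 212 for Smc4. Cenpn starts 275 bases from Cmc2 and had 42, 54, 41 and 47 counts, beside 0, 1, 1 and 1 for Cmc2. These genes and Cks1b are the 4 mitosis genes with a near neighbour that reached 5 TPM, so the mitosis side was high by choice. In the 3 pairs above the mitosis gene held nearly all the counts. Cks1b, 60 bases from Shc1, had 6, 11, 9 and 18 counts, beside 8, 4, 3 and 5, and was the lower in replicate 1. Exosc1, 158 bases from Zdhhc16, was the lower in every library: it had 40, 28, 42 and 41 counts, beside 70, 46, 72 and 76.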
